A study of Mus musculus with 16 samples.

Results

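The genes described are 10 genes of programmed lytic cell death in mouse liver: Mlkl, Ripk1, Ripk3 and Zbp1 of necroptosis, Casp8, which decides between apoptosis and necroptosis, and Casp1, Casp4, Gsdmd, Nlrp3 and Pycard of the inflammasome and pyroptosis. They were chosen by name, and each was read from the probe set that the platform annotation pairs with its symbol alone. A probe set was found for 9 of the 10, and each of the 9 had a single probe set, so no choice between probe sets was needed. Ripk1 was not analysed here. All 9 passed the filter on dim probe sets, and they stand among 15908 genes tested. The arrays measured liver RNA in 16 samples of male mice labelled C57Bl/6, 4 in each of 4 groups, and each sample is called a liver below. The groups were S534A livers after 1 mg/kg lipopolysaccharide (LPS), WT livers after the same dose, S534A livers without treatment and WT livers without treatment. S534A mice carry a germline knock-in of Rela, bred to homozygosity, that replaces a serine of the NF-kB subunit p65 by alanine, so every cell type of the liver carries it. The ages, the time between LPS and collection and a group given vehicle alone are not in the sources used here, and no label states whether samples within a group are from different mice. The p-values therefore cover the spread among these arrays alone, part of which may be technical. The study asks, by its title, what the substitution does to the response to LPS, a bacterial endotoxin.

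In necroptosis the kinases RIPK1 and RIPK3 assemble through short shared motifs, RIPK3 phosphorylates the pseudokinase MLKL, and MLKL breaks the plasma membrane. ZBP1, a sensor of Z-form nucleic acids, can start the same route through RIPK3, while caspase-8 cuts the kinases and holds it back. In pyroptosis an inflammasome forms when a sensor such as NLRP3 recruits caspase-1 through the adaptor ASC, the product of Pycard. Caspase-11, which mouse Casp4 encodes, instead binds LPS in the cytosol directly. Both caspases cut gasdermin D, whose freed part forms pores. Inflammasome parts are best known from myeloid cells, and in liver the resident macrophages, called Kupffer cells, are a usual site of their study.

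Promoter sequence is shown for Casp4 because its window alone among the members held a match to any motif searched, and for Mlkl because it had the largest rise among members with a window. RefSeq promoters of GRCm38.p6, from 250 bases before to 50 after the annotated start, matched 7 of the 9 measured members in 9 windows, with 2 each for Casp4 and Nlrp3. Zbp1 and Gsdmd are named only. Both strands were searched for an NF-kB form (GGG, any 3 bases, then TTCC), an interferon response element core (GAAA, any 2 bases, then GAAA), a GAS form, TTCNNNGAA, and an AP-1 form, TGANTCA. In the Casp4 window at chr9:5308599-5308898 on the plus strand, capitals mark 3 matches to the NF-kB form, which do not overlap each other. They begin 93, 39 and 14 bases before the start. The Mlkl window at chr8:111338156-111338455, read on the minus strand, held no match.
Casp4: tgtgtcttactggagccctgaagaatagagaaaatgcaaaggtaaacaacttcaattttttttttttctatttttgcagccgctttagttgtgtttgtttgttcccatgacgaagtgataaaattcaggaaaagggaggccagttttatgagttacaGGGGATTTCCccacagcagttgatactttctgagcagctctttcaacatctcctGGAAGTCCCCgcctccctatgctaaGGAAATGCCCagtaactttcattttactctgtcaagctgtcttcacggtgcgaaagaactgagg
Mlkl: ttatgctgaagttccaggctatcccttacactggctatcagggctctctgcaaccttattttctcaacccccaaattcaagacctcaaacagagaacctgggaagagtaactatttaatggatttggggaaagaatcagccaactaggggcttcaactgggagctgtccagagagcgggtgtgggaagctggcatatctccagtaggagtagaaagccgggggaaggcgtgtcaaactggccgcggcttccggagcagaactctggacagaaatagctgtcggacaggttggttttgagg
The NF-kB form occurred in 5.56% of all 32851 windows, and 7 windows, 0.0213%, held 3 or more matches, of which 2 were the overlapping windows of Casp4. The cut of 3 equals the count in Casp4 itself, so this share only describes Casp4 and is no test. The interferon core occurred in 3.44% of windows, the GAS form in 8.3% and the AP-1 form in 7.81%, and none of the 3 was in a window of a member. A match describes letters and not bound sites.

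The deposited values are RMA expression values on a log2 scale, so a difference of 1 is a 2-fold change, and every change below is an estimate with the standard error of a limma fit over all 16 arrays (n = 4 per group). Array medians lay between 6.37 and 6.42 in LPS-treated livers and between 6.25 and 6.35 in untreated livers. The ranges did not overlap, so every LPS comparison carries this shift. Rela itself, whose transcript cannot check a point substitution, had 11.38, 11.43, 11.37 and 11.41 in S534A livers after LPS, 11.42, 11.31, 11.37 and 11.47 in WT livers after LPS, 9.92, 10.00, 9.88 and 10.13 in untreated S534A livers and 10.03, 10.27, 10.06 and 10.34 in untreated WT livers. Hepatocyte markers, the check of the liver label, had a mean of 7 genes between 13.51 and 13.65 on every array. Untreated arrays stood apart from each other in clock genes. A clock score (Arntl subtracted from the mean of Tef, Dbp and the Per1, Per2 and Per3 genes) ran from -2.55 to 3.41 in untreated S534A livers and from -1.77 to 3.47 in untreated WT livers, against -0.70 to 1.63 and -0.01 to 1.53 in S534A and WT livers after LPS. Of the members counted below, the same number rose without the 3 arrays of lowest score.

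LPS raised 6 of the 9 measured genes in S534A livers and 6 of 9 in WT livers, and lowered none in either (limma, Benjamini-Hochberg adjusted p under 0.05). In both genotypes the 6 were Mlkl, Zbp1, Casp4, Nlrp3, Gsdmd and Casp8. Over all genes tested, 14.2% rose in S534A livers and 14.9% in WT livers. At least 2-fold rises were found for 5 members in each genotype, against 4.27% of all genes in S534A and 4.48% in WT. The members' median change was 1.18 in S534A livers and 1.09 in WT livers, beside -0.03 and -0.05 over all genes. The remaining members, Ripk3, Casp1 and Pycard, did not pass the test in either genotype. The genes were chosen by name with earlier results of these data known, so these counts describe them and are no independent evidence.

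**Figure D1:**
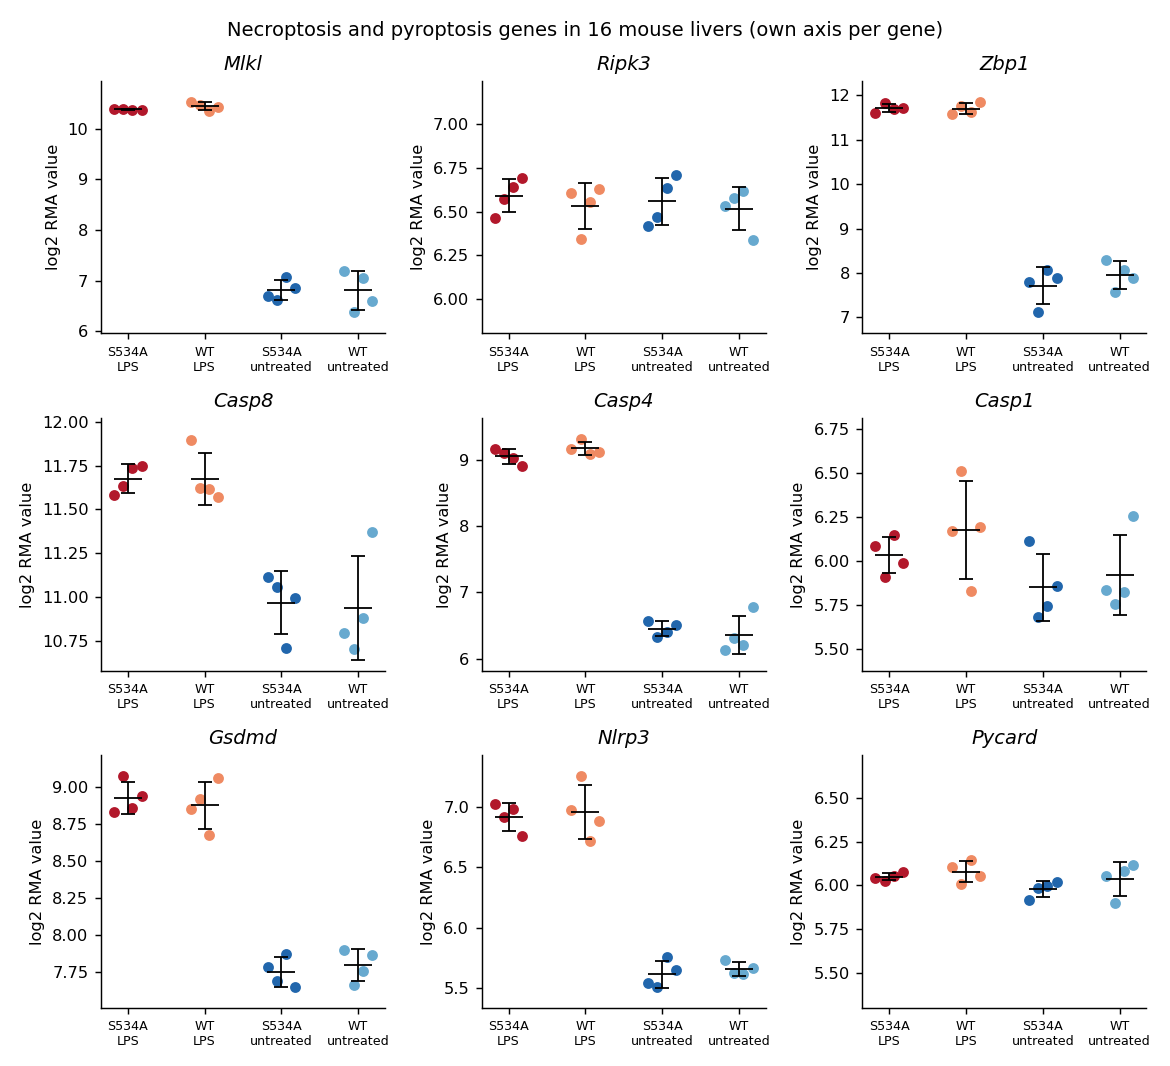
Log2 RMA value (y axis, own range per gene) of the 9 measured genes in each of the 16 livers. Points are arrays, the bar is the mean and the whiskers 1 SD (n = 4 per group). LPS-treated and untreated livers separate for Mlkl, Zbp1, Casp8, Casp4, Gsdmd and Nlrp3, and overlap or nearly touch for Ripk3, Casp1 and Pycard.

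Zbp1, the nucleic acid sensor of necroptosis, and Mlkl, the membrane-breaking effector, had the highest rises of the set. Zbp1 stood at 11.60, 11.83, 11.69 and 11.72 in S534A livers after LPS and 11.58, 11.75, 11.61 and 11.84 in WT livers after LPS. Without treatment it stood at 7.79, 7.11, 8.07 and 7.88 in S534A livers and 8.30, 7.57, 8.08 and 7.89 in WT livers. All 8 LPS-treated livers lay more than 3 log2 units above all untreated livers. The change was 4.00 ± 0.17 in S534A (15.96-fold, limma adjusted p = 8.34e-12) and 3.74 ± 0.17 in WT (13.3-fold, adjusted p = 2.04e-11).

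Mlkl gave 10.39, 10.40, 10.36 and 10.38 in S534A livers after LPS and 10.52, 10.47, 10.35 and 10.43 in WT livers after LPS. Untreated values were 6.70, 6.62, 7.07 and 6.86 in S534A livers and 7.19, 6.37, 7.05 and 6.61 in WT livers. The LPS-treated livers were again all above the untreated ones, and they lay closer together. The SD was 0.02 after LPS and 0.20 without treatment in S534A livers, and 0.07 and 0.38 in WT livers. Mlkl rose by 3.57 ± 0.14 in S534A (11.9-fold, limma adjusted p = 2.67e-12) and by 3.64 ± 0.14 in WT (12.4-fold, adjusted p = 2.09e-12).

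Ripk3, the kinase that acts between ZBP1 and MLKL, did not pass the test. It had 6.47, 6.57, 6.64 and 6.69 in S534A livers after LPS, against 6.42, 6.47, 6.63 and 6.71 in untreated S534A livers. WT livers had 6.61, 6.34, 6.55 and 6.63 after LPS, against 6.53, 6.58, 6.62 and 6.34 without treatment. Treated and untreated livers overlapped in both genotypes, and so did the genotypes. The change was 0.03 in S534A, with a 95% interval from -0.15 to 0.22 (limma adjusted p = 0.789), and 0.02 in WT, with an interval from -0.17 to 0.20 (adjusted p = 0.912). Its values were above the array median on 15 of 16 arrays.

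Casp8, whose product restrains necroptosis, rose least among the 6. It had 11.58, 11.63, 11.74 and 11.75 in S534A livers after LPS, against 11.11, 11.06, 10.71 and 10.996 in untreated S534A livers. In WT livers it had 11.89, 11.62, 11.61 and 11.57 after LPS, against 10.80, 10.71, 10.88 and 11.37 without treatment. No LPS-treated liver fell within the untreated range, although untreated WT array 4 came close to it. The change was 0.71 ± 0.13 in S534A (1.63-fold, limma adjusted p = 0.000197) and 0.74 ± 0.13 in WT (1.67-fold, adjusted p = 0.000138).

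Casp4, the gene of the LPS-binding caspase-11, was the third of the strong risers. Its values were 9.16, 9.10, 9.03 and 8.90 in S534A livers after LPS and 9.16, 9.31, 9.08 and 9.12 in WT livers after LPS. Untreated livers had 6.58, 6.33, 6.40 and 6.52 in S534A and 6.14, 6.31, 6.21 and 6.78 in WT. The separation was complete, and untreated WT array 4 was the highest of the untreated livers. Casp4 rose by 2.59 ± 0.12 in S534A (6.02-fold, limma adjusted p = 1.42e-11) and by 2.81 ± 0.12 in WT (6.999-fold, adjusted p = 4.68e-12).

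Casp1, the caspase of the canonical inflammasome, lies next to Casp4 on chromosome 9 and did not pass the test. It had 6.08, 5.91, 6.15 and 5.99 in S534A livers after LPS, against 6.11, 5.68, 5.75 and 5.86 in untreated S534A livers. WT livers had 6.17, 6.51, 5.83 and 6.19 after LPS, against 5.84, 5.76, 5.82 and 6.26 without treatment. Treated and untreated livers overlapped in both genotypes. The change was 0.18 ± 0.14 in S534A (limma adjusted p = 0.298) and 0.26 ± 0.14 in WT (adjusted p = 0.149). The WT change passed without LPS-treated WT array 3 (0.37, adjusted p = 0.0311), without untreated WT array 4 (0.37, adjusted p = 0.0316) and with array quality weights (0.28, adjusted p = 0.0431), which makes 7 members that rose. Casp1 was above the array median on 2 of 16 arrays. Casp12, the gene on the other side of Casp4, stood at 0.12 ± 0.12 in S534A (adjusted p = 0.473) and rose by 0.52 ± 0.12 in WT (adjusted p = 0.00228), a call lost without the 3 arrays of lowest clock score (0.36, adjusted p = 0.0600).

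Gsdmd, whose product forms the pyroptotic pore, rose more than 2-fold in both genotypes, as did the sensor gene Nlrp3. Gsdmd had 8.83, 9.07, 8.86 and 8.94 in S534A livers after LPS and 8.85, 8.92, 8.68 and 9.06 in WT livers after LPS. Untreated livers had 7.78, 7.69, 7.87 and 7.65 in S534A and 7.90, 7.66, 7.75 and 7.86 in WT. All treated livers were above all untreated livers. The rise was 1.18 ± 0.09 in S534A (2.26-fold, limma adjusted p = 1.14e-08) and 1.09 ± 0.09 in WT (2.12-fold, adjusted p = 3.30e-08).

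Nlrp3 gave 7.02, 6.91, 6.98 and 6.76 in S534A livers after LPS and 6.97, 7.25, 6.72 and 6.88 in WT livers after LPS. Without treatment its values were 5.54, 5.51, 5.75 and 5.65 in S534A livers and 5.73, 5.62, 5.61 and 5.67 in WT livers. It was above the array median on all 8 treated arrays and on none of the 8 untreated arrays, where the probe set is dim. The rise was 1.30 ± 0.10 in S534A (2.47-fold, limma adjusted p = 1.15e-08) and 1.30 ± 0.10 in WT (2.46-fold, adjusted p = 1.26e-08).

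Pycard, the adaptor gene for inflammasome assembly, did not pass the test. Its values were 6.04, 6.03, 6.05 and 6.08 in S534A livers after LPS, against 5.92, 5.98, 5.99 and 6.02 in untreated S534A livers. In WT livers they were 6.11, 6.01, 6.15 and 6.05 after LPS, against 6.05, 5.90, 6.08 and 6.12 without treatment. The S534A groups did not overlap, yet they were separated by less than 0.01, and the change of 0.07 ± 0.06 did not pass (limma adjusted p = 0.377). In WT the change was 0.04 ± 0.06 (adjusted p = 0.650). Pycard was below the array median on all 16 arrays, so a change in a dim signal may not have been detectable. Counting Pycard, 7 members had S534A groups without overlap and higher after LPS, where 16.4% of all genes did, and in WT 6 members did, where 12.7% of all genes did.

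**Figure D2:**
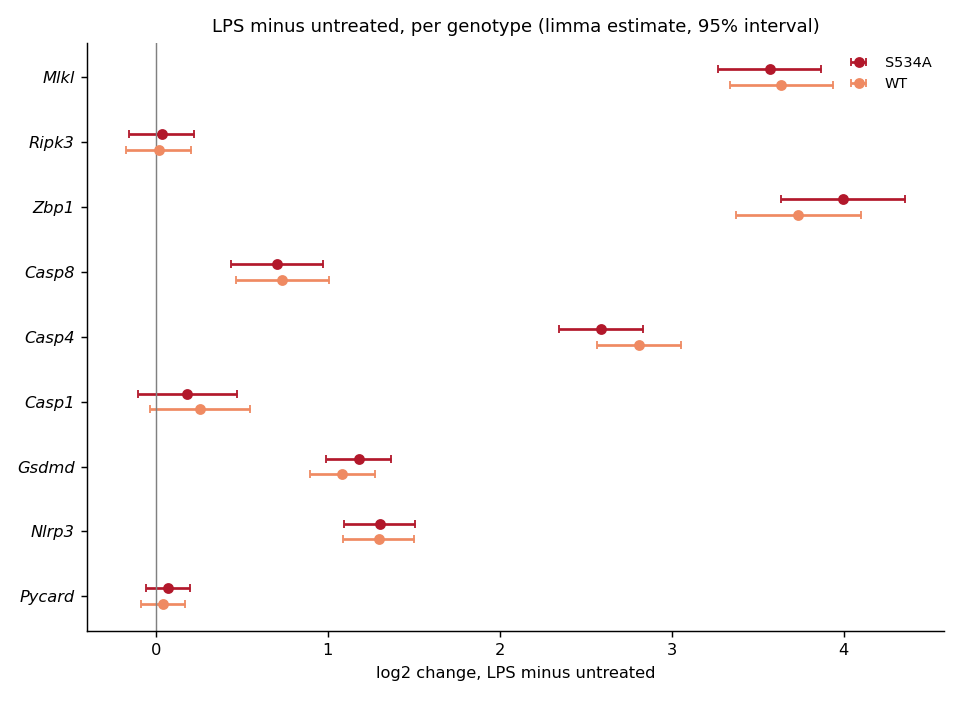
Log2 change, LPS minus untreated (x axis), of each measured gene in S534A and WT livers, as the limma estimate with its 95% interval. The intervals of Zbp1, Mlkl, Casp4, Nlrp3, Gsdmd and Casp8 lie above 0 in both genotypes, and those of Ripk3, Casp1 and Pycard include 0.

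S534A and WT livers did not differ in any of the 9 genes by the test, after LPS or without treatment. After LPS 0 of 9 members passed (limma), with 0 at an unadjusted p under 0.05, where 0% of all genes passed and 3% had an unadjusted p under 0.05. Without treatment 0 of 9 passed (limma), with 0 at an unadjusted p under 0.05, where 0.0126% of all genes (2 genes) passed and 8.88% had an unadjusted p under 0.05. With array quality weights 370 of all genes passed in that comparison, and still 0 of the members. After LPS the S534A minus WT differences ran from -0.14 for Casp1 to 0.06 for Ripk3, and the widest 95% intervals were those of Zbp1, from -0.35 to 0.38, and Mlkl, from -0.36 to 0.24. For Casp4 the difference was -0.12 with an interval from -0.36 to 0.12, for Gsdmd 0.05 from -0.14 to 0.23, for Nlrp3 -0.04 from -0.24 to 0.17, and for Casp8 0.00 from -0.27 to 0.27. Without treatment Zbp1 had the difference farthest from 0, -0.24 with an interval from -0.61 to 0.12 (limma adjusted p = 0.775), and the other 8 lay between -0.07 and 0.10. The intervals bound what could have been missed, and a p above the threshold does not show that the genotypes are alike.

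The LPS effect was likewise not found to differ between genotypes. For the difference between the S534A and the WT response, 0 of 9 members passed (limma interaction), with 0 at an unadjusted p under 0.05, where 0% of all genes passed and 4.82% had an unadjusted p under 0.05. Zbp1 had the highest value, 0.26 ± 0.24 with a 95% interval from -0.25 to 0.77 (adjusted p = 0.958). Casp4 had the lowest, -0.22 ± 0.16 with an interval from -0.56 to 0.13 (adjusted p = 0.951). For Mlkl the value was -0.07 from -0.49 to 0.35, for Gsdmd 0.09 from -0.17 to 0.36, and for Nlrp3 0.01 from -0.29 to 0.30. In the order of group means, then, the treated groups of both genotypes stood above the untreated groups for the 6 genes that rose, and neighbours in that order of the same treatment did not differ beyond their spread.

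**Figure D3:**
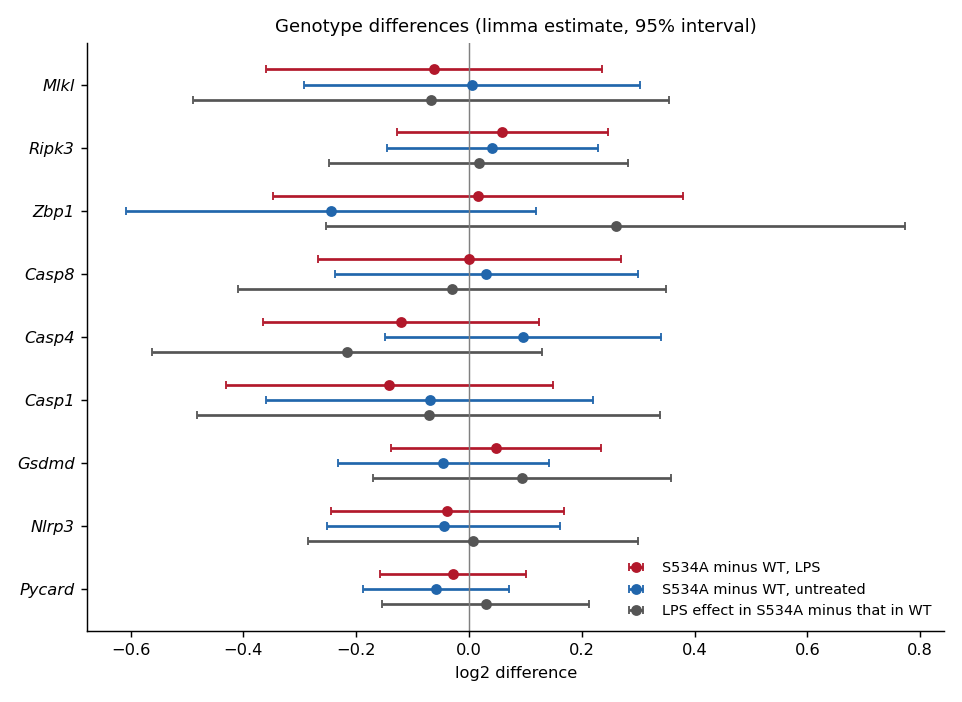
Log2 differences (x axis) between genotypes for each measured gene, with 95% intervals from limma: S534A minus WT after LPS, S534A minus WT without treatment, and the S534A response to LPS minus the WT response. All 27 intervals include 0, and those of Zbp1 are the widest.

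Among untreated livers Mlkl and Zbp1 varied more than Gsdmd or Nlrp3, and the arrays with a low clock score had the highest values of both. Untreated S534A array 3, with a clock score of -2.55, had 7.07 for Mlkl and 8.07 for Zbp1. Untreated WT arrays 1 and 3, with scores of -1.70 and -1.77, had 7.19 and 7.05 for Mlkl and 8.30 and 8.08 for Zbp1. The other untreated S534A arrays, with scores of 3.33, 3.41 and 0.96, had 6.70, 6.62 and 6.86 for Mlkl, and the other untreated WT arrays, with scores of 3.43 and 3.47, had 6.37 and 6.61. Casp4 did not follow this order, since its 2 lowest untreated values, 6.14 and 6.21, were those of untreated WT arrays 1 and 3. With the clock score as a covariate the LPS change of Mlkl was 3.52 ± 0.08 in S534A and 3.63 ± 0.08 in WT, and that of Zbp1 was 3.94 ± 0.13 and 3.73 ± 0.13. Without the 3 untreated arrays of lowest score Mlkl stood at 3.66 in S534A and 3.95 in WT. The part of the clock genes in these values was not tested.

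**Figure D4:**
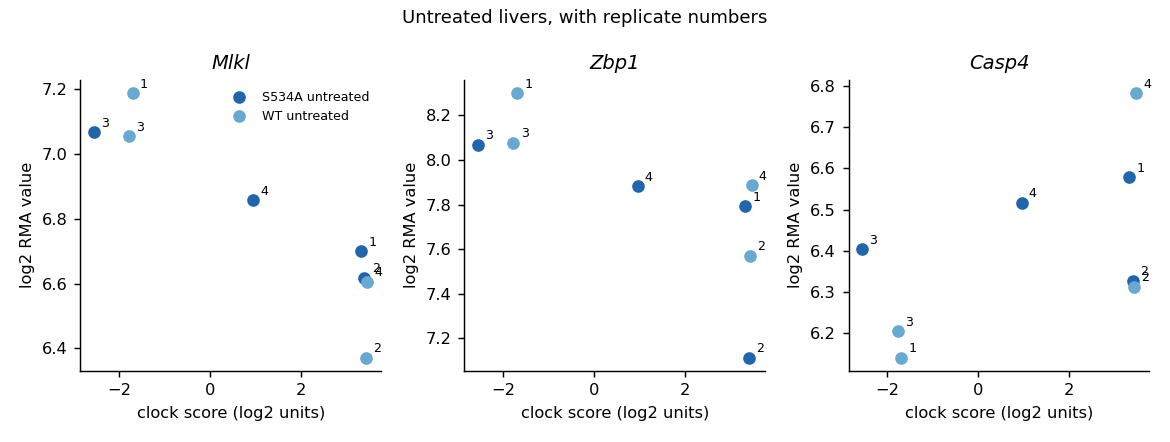
Log2 RMA value (y axis) of Mlkl, Zbp1 and Casp4 against the clock score (x axis, log2 units) in the 8 untreated livers, labelled by replicate number. The 3 arrays with a score below 0 hold the 3 highest values of Mlkl and of Zbp1, and not of Casp4.

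Regulators of necroptosis around the members mostly rose with LPS. Of 20 listed, 14 rose and 3 fell in S534A livers and 13 rose and 3 fell in WT livers. Over all genes 14.2% rose and 31.2% fell in S534A livers, and 14.9% and 29.9% in WT livers. Tnfaip3, a ubiquitin editor that restrains RIPK1 signalling, rose by 3.30 ± 0.09 in S534A and 3.26 ± 0.09 in WT (limma adjusted p = 1.57e-14 and 1.65e-14). Tlr3, a receptor for double-stranded RNA that reaches RIPK3 through an adaptor, rose by 3.29 ± 0.09 in S534A and 3.17 ± 0.09 in WT, and Adar, an RNA-editing enzyme that limits the ligands of ZBP1, by 2.59 ± 0.07 and 2.56 ± 0.07. The 3 that fell, named after their values were seen, were the death-domain adaptors Tradd (-0.67 ± 0.10 in S534A, -0.66 ± 0.10 in WT) and Fadd (-0.37 ± 0.10, -0.50 ± 0.10) and the linear ubiquitin assembly factor Sharpin (-0.51 ± 0.07, -0.39 ± 0.07).

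GTPases and factors of the caspase-11 route rose in 7 of 8 measured cases in each genotype, beside 14.2% of all genes in S534A and 14.9% in WT. The guanylate-binding proteins, which coat bacteria and expose their LPS to caspase-11, included Gbp5 at 5.32 ± 0.11 in S534A and 5.39 ± 0.11 in WT (limma adjusted p = 5.47e-16 and 4.57e-16), Gbp3 at 4.27 ± 0.11 and 4.35 ± 0.11, and Gbp7 at 3.64 ± 0.10 and 3.59 ± 0.10. The exception was Gbp2b, a gene picked once its values were known, at -0.04 in S534A and -0.08 in WT (adjusted p = 0.807 and 0.614). Irf1, a transcription factor of interferon genes, rose by 1.79 ± 0.15 in S534A and 1.23 ± 0.15 in WT. Its interaction of 0.56 ± 0.21 did not pass (adjusted p = 0.951).

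Calls among inflammasome sensors and their activators went both ways. Of 13 tested of 18 listed, 6 rose and 3 fell in S534A and 5 rose and 2 fell in WT. Over all genes 14.2% rose and 31.2% fell in S534A, and 14.9% and 29.9% in WT, so the falls were below the share of all genes. The median change of the list was -0.02 in S534A and 0.07 in WT, beside -0.03 and -0.05 over all genes. Mefv, the gene of the sensor pyrin, rose by 0.95 ± 0.12 in S534A and 1.05 ± 0.12 in WT, and Naip2, a sensor of bacterial secretion systems, by 0.50 ± 0.14 and 0.81 ± 0.14 (limma adjusted p = 0.00581 and 0.000105). P2rx7, an ATP-gated channel upstream of NLRP3, fell by 0.46 ± 0.08 in S534A and by 0.40 ± 0.08 in WT. Txnip, a thioredoxin-binding protein linked to NLRP3, fell by 1.27 ± 0.20 in S534A (adjusted p = 5.12e-05) and stood at -0.41 ± 0.20 in WT (adjusted p = 0.110). The Txnip interaction of -0.86 ± 0.28 did not pass (adjusted p = 0.951), and in WT Txnip passed with arrays centred on their medians (-0.51, adjusted p = 0.0474), without LPS-treated WT array 3 (-0.61, adjusted p = 0.00955) and without the 3 arrays of lowest clock score (-0.68, adjusted p = 0.0277).

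Of the other caspases, gasdermins and cytokine substrates, 11 were tested of 19 listed, and 3 rose and 2 fell in S534A, against 5 and 2 in WT. The shares of all genes were 14.2% higher and 31.2% lower in S534A, and 14.9% higher and 29.9% lower in WT. Il1b, a cytokine that caspase-1 matures, rose by 2.49 ± 0.14 in S534A and 2.66 ± 0.14 in WT (limma adjusted p = 3.03e-10 and 1.23e-10). Il1a rose by 1.01 ± 0.14 and 1.17 ± 0.14, and Casp2 by 1.86 ± 0.12 and 1.91 ± 0.12. Il18, the other cytokine that caspase-1 matures, stood at 0.15 ± 0.08 in S534A (adjusted p = 0.143), passing after a second quantile normalization (0.0262) or with array quality weights (0.0358), and rose by 0.32 ± 0.08 in WT (adjusted p = 0.00397). The apoptotic initiator Casp9 fell by 0.90 ± 0.11 in S534A and by 0.96 ± 0.11 in WT, and Casp6, named after its values were seen, by 0.69 and 0.60. Ninj1, which ruptures membranes late in lytic death, stood at 0.05 ± 0.08 and -0.04 ± 0.08 (adjusted p = 0.636 and 0.743).

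ESCRT genes, whose products can shed damaged membrane and delay lysis, had few calls in either direction. Of 10, 2 rose and 2 fell in S534A and 3 rose and 1 fell in WT, beside 14.2% and 14.9% of all genes that rose and 31.2% and 29.9% that fell. The S534A count of lower genes includes Vps4a, at -0.35 (limma adjusted p = 0.0289), whose call was lost without S534A LPS array 2 or 4 or untreated S534A array 1 or 2 (adjusted p from 0.0628 to 0.0794). In WT Vps4a passed as lower with arrays centred (-0.36, adjusted p = 0.0344) or without the 3 arrays of lowest clock score (-0.42, 0.0254). With arrays centred Tsg101 also passed as lower in both genotypes and Vps4b in S534A. In that setting 6231 of all 15908 genes tested passed as lower in S534A and 6493 in WT. Chmp2b passed as higher in S534A after a second quantile normalization. These counts thus depend on the setting. Chmp4b rose by 1.35 ± 0.08 in S534A and 1.14 ± 0.08 in WT (limma adjusted p = 3.25e-10 and 2.60e-09), and Chmp1a fell by 0.75 ± 0.10 in S534A and by 0.66 ± 0.10 in WT. Over the 5 lists together 62 genes were tested of 79 named. In S534A livers 32 rose (51.6%) and 10 fell (16.1%), beside 14.2% and 31.2% of all genes, and in WT livers 33 rose (53.2%) and 8 fell (12.9%), beside 14.9% and 29.9%. Between genotypes none of the 62 passed after LPS, without treatment or in the interaction (limma). At an unadjusted limma p under 0.05 there were 2, 8 and 5 of the 62, beside 3%, 8.88% and 4.82% of all genes. The median change of the 62 was 0.23 in S534A and 0.36 in WT. With array quality weights Map3k7 (0.28, limma adjusted p = 0.0382) and Txnip (0.76, adjusted p = 0.0440) passed as higher in untreated S534A than in untreated WT livers. In that setting 370 of all 15908 genes tested passed, 215 higher and 155 lower.

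**Figure D5:**
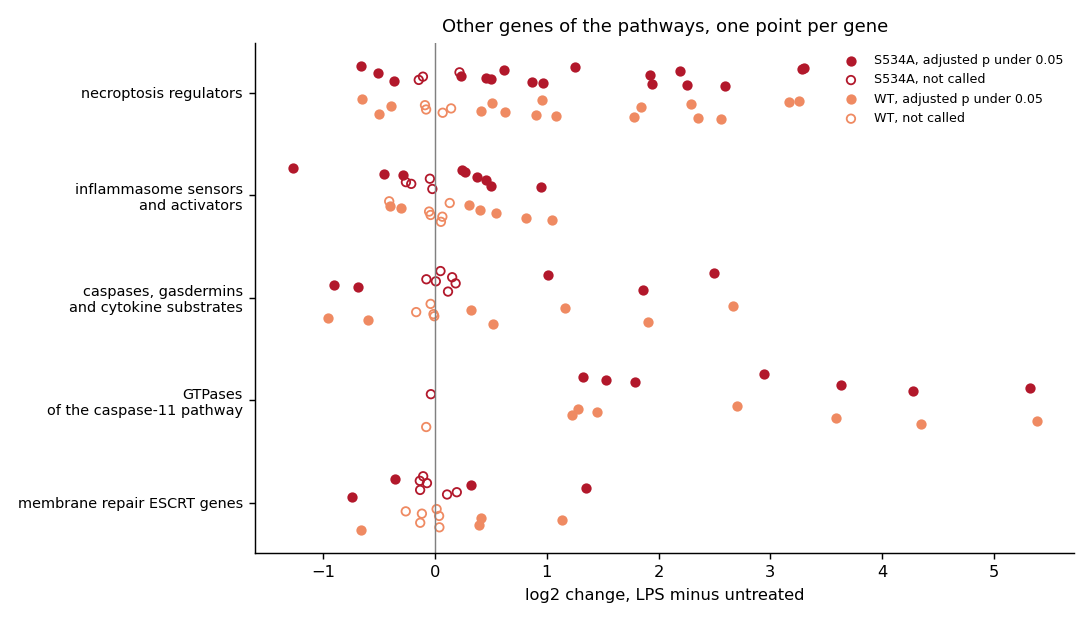
Log2 change, LPS minus untreated (x axis), of each tested gene of 5 pathway lists (rows), for S534A and WT livers. Filled points passed the limma test at an adjusted p under 0.05 and open points did not. GTPases of the caspase-11 pathway reach 5.39, and inflammasome sensors stay between -1.27 and 1.05.

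Markers of neutrophils rose with LPS, and most markers of Kupffer and sinusoidal endothelial cells fell, in the same livers as the members. The shares of all genes to set beside the counts are 14.2% higher and 31.2% lower in S534A, and 14.9% higher and 29.9% lower in WT. Of 14 neutrophil markers 12 rose in each genotype, with S100a9 at 2.87 ± 0.18 in S534A and 2.92 ± 0.18 in WT (limma adjusted p = 9.26e-10 and 7.54e-10). Their mean lay between 7.56 and 7.87 in S534A and between 7.50 and 7.995 in WT after LPS, against 5.96 to 6.06 and 5.93 to 6.13 without treatment. The mean includes Lcn2, which had the largest change of the list, 4.77 in S534A and 4.30 in WT. After LPS Lcn2 lay between 13.58 and 13.67 in S534A and between 13.67 and 13.69 in WT, at the level of the hepatocyte markers. The mean is thus not a reading of neutrophils alone. Retnlg, a neutrophil product, rose by 2.40 ± 0.11 in S534A and 2.47 ± 0.11 in WT, and was above the array median on all 8 treated and 0 of 8 untreated arrays. Ly6g and Mpo, picked once their values were known, stayed below the array median on all 16 arrays, although Ly6g rose by 0.72 ± 0.15 in S534A and 0.67 ± 0.15 in WT (limma adjusted p = 0.000694 and 0.00135). Mpo stood at 0.12 ± 0.08 in S534A and 0.06 ± 0.08 in WT (adjusted p = 0.259 and 0.606). Of 5 tested monocyte markers 4 rose and 1 fell in S534A, and 3 rose and 1 fell in WT. Plac8 and Itgam rose and Lyz2 fell in both genotypes. The other tested markers, Fn1 and F13a1, were looked at once their values were known. Fn1 lay between 12.95 and 13.28 on every array, near the level of the hepatocyte markers, and F13a1 was below the array median on every array. Ccr2 and Chil3 did not pass the filter, and Ly6c2 had no probe set of its own. These counts therefore do not measure monocyte number. Of 13 Kupffer cell markers 11 fell and 1 rose in each genotype. Clec4f changed by -1.25 ± 0.10 in S534A and -1.17 ± 0.10 in WT. The marker that rose, named after its values were seen, was Marco, by 1.06 ± 0.14 in S534A and 1.28 ± 0.14 in WT. Of 11 sinusoidal endothelial markers 9 fell and 2 rose in each. The 2 that rose, named after their values were seen, were Lyve1 and Cdh5. Lyve1 had the highest change of that list, 1.17 in S534A and 1.35 in WT. T and NK cell markers were near the share of all genes for rises, with 1 of 7 higher in each genotype, 0 lower in S534A and 1 lower in WT. Their lower counts depended on the setting. Cd3e, Cd3g and Cd4 also passed as lower in S534A with arrays centred (-0.32, -0.33 and -0.32), after a second quantile normalization or with array quality weights. In WT Cd3g also passed as lower with arrays centred (-0.36), after a second quantile normalization (-0.35) or with array quality weights (-0.25). It did so too without the 3 arrays of lowest clock score (-0.37). Cd3e passed as lower in WT with arrays centred (-0.25) or after a second quantile normalization (-0.23). With arrays centred, 6231 of all 15908 genes tested passed as lower in S534A and 6493 in WT. The WT call of the main fit, Cd4 at -0.32, was lost without the 3 arrays of lowest clock score (limma adjusted p = 0.241) and with only the groups compared (0.0597). It was also lost without WT LPS array 1 (0.0919) or 2 (0.0763) or untreated WT array 1 (0.115). B cell markers fell in 3 of 5 cases in each. Of 7 hepatocyte markers 0 passed in S534A (limma), and 3 rose in WT, at most by 0.36. Of those 3, Hnf4a and Apob lost the call with arrays centred (adjusted p = 0.124 and 0.381) and without the 3 arrays of lowest clock score (0.123 and 0.132), Apob also with only the groups compared (0.103). In S534A, Ttr, Tat and Apob passed with array quality weights (-0.11, 0.16 and 0.12). The part of these cells in the members' changes was not tested, and in bulk liver fewer cells of a type and less RNA per cell cannot be told apart.

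Other genes followed some members closely over the 16 arrays. Likeness was the root-mean-square difference between gene-centred log2 values, over 14916 named genes. Nearest to Mlkl were Tor3a (0.14), Tacc2 (0.19) and Isg20 (0.19). Zbp1 had Tor3a (0.16), Xaf1 (0.18) and Trim30d (0.26) nearest. For Nlrp3 the nearest were Cenpj (0.10), Armc8 (0.11) and Rhbdf2 (0.11), and for Gsdmd they were Mov10 (0.10), Fgr (0.10) and Tapbp (0.11). Tor3a thus stood first for both of the strongest risers, changing by 3.87 in S534A and 3.66 in WT. The likeness is a description over arrays that share the LPS contrast.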

How the data were processed

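RNA of 16 mouse liver samples, 4 per group by sample title, was measured on 1-colour whole-transcript arrays. The series text gives the untreated S534A group the LPS dose as well, and the sample titles were followed. The deposited values are log2 expression values made by the authors with RMA, per the submitters' processing notes. The RMA version is not stated in these sources, nor is signal over background. The number of arrays limits the precision.

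Of 35556 probe sets, 21789 had 1 gene symbol. Probe sets above the 30th percentile of their array in at least 4 arrays were kept, with the probe set of highest mean per gene, which left 15908 genes. Limma 3.58.1 in R 4.3.3 fitted 4 group means without covariate over all arrays (12 residual degrees of freedom). Two-sided p-values took a Benjamini-Hochberg adjustment across all genes in each of 5 comparisons. The fit was tested on simulated data. Named genes were all members, up to 3 genes of lowest p per list and comparison, and the 3 nearest genes for each of 4 members; others are marked in the text. Members and lists were chosen with earlier results of these data known. Figures used Python 3.11.15 and matplotlib 3.10.9.

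The alternatives tried were: averaging the probe sets of a gene, filtering at the array median or not at all, centring on the array median, a second quantile normalization, array quality weights, trended robust eBayes, a replicate block, only the groups compared, an adjusted p under 0.01, the clock score as covariate, leaving out the 3 arrays of lowest clock score, and leaving out each array in turn.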

Additional observations from a re-analysis of the deposited data

Results flagged for a closer look

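In groups of 4 arrays, a sample was looked at again when its gap to the nearest other sample, divided by the range of the group, was above Dixon's 95% critical value. Of 36 groups of a member, 2 met this, and chance alone gives about 1 in 20. Casp1 in untreated WT array 4, at 6.26 against 5.76 to 5.84 in the other untreated WT arrays, had a ratio of 0.841. Casp8 in LPS-treated WT array 1, at 11.89 against 11.57 to 11.62 in the other LPS-treated WT arrays, had a ratio of 0.846. Untreated WT array 4 was also the highest untreated array for Casp4 (6.78) and Casp8 (11.37). No member had an interaction past the threshold.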

How the results depend on the processing

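Counts of members that rose with LPS were 6 in S534A under every alternative run and 6 or 7 in WT. With a filter at the array median Casp1 and Pycard were not tested, and the same count of 6 rose of 7 tested. Counts between genotypes were 0 under every alternative. Single changes of members kept their direction and call in 1169 comparisons with an alternative, 3 gained a call (Casp1 in WT), and 69 changed sign without a call on either side. Centring arrays moved the median of all genes after LPS by over 0.1 in WT, to -0.16 (-0.13 in S534A), and left Ripk3 and Pycard slightly below 0. The share of calls that were higher fell to 21.5% in S534A, against 31.3% in the main fit, and to 22.1% in WT, against 33.3%.

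Of pathway genes 0 differed between untreated genotypes, and 2 did with array quality weights. Of all genes, 2 differed there, with 4 under centring and under trended robust eBayes, 370 with array quality weights, 1 without the 3 arrays of lowest clock score, and 0 with the replicate block, only the groups compared or an adjusted p under 0.01. Leaving out each array in turn gave 0 to 7. The interaction had 0 calls, 3 with array quality weights and 0 to 2 on leaving out an array. Same-numbered arrays of different groups deviated together (correlation over 0.1) in 9 of 24 pairs, and 6 of 16 arrays correlated best with their own number, so the numbers were not taken as pairs. With the replicate block 6 members rose in each genotype and 0 differed between genotypes. Probe sets at or below the array median on most arrays of a group, those of Casp1, Pycard and untreated Nlrp3, may limit what could be detected. The rise of Nlrp3 passed in both genotypes all the same.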
